A study of Mus musculus with 33 samples.

Results

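The mitochondrial ribosomal protein genes were taken as every row of the 3′-end table whose symbol starts with Mrpl or Mrps followed by a digit and whose mean level over the libraries was at least 10 RP10M, the number of reads scaled to 10000000 per library. Of 22970 rows, 76 had such a symbol, and all 76 reached that level. They were followed in cardiac myocytes isolated from mouse hearts on the Black Swiss strain background, either wild type (WT) or RBFox2 KO. Polyadenylated RNA was measured by 3′-end sequencing, which the labels call MAPS, at the age of 9 weeks. Isoforms were counted by RASL-seq, in which probe pairs ligated across splice junctions are counted, in WT and KO myocytes aged 5, 9 and 18 weeks. For each genotype and age the labels name 1 sample and the tables hold 3 numbered columns, treated here as 3 libraries. Whether these came from separate animals is not given in the labels, so every p-value measures the spread between libraries. The labels do not give the part of Rbfox2 that was deleted or any Cre driver.

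Mitochondria keep a ribosome of their own, which makes the few membrane proteins of the respiratory chain that are encoded in mitochondrial DNA. Its RNA is made in the organelle, while all of its proteins are encoded in the nucleus, translated in the cytosol and imported. The large subunit (Mrpl proteins) forms peptide bonds and the small subunit (Mrps proteins) reads the messenger RNA. Some of the proteins descend from bacterial ribosomal proteins and others are found only in mitochondria. The heart, which depends on oxidative phosphorylation, is rich in mitochondria. By the structure of the mammalian particle, 49 of the genes encode large-subunit and 26 small-subunit proteins. Mrps18a and Mrps30 carry small-subunit symbols and sit in the large subunit. Mrps36 is now placed in the 2-oxoglutarate dehydrogenase complex and was counted in neither.

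The 3′-end libraries held between 4007538 and 9563472 reads and the RASL-seq libraries between 1998027 and 12876511 counts. Rbfox2 itself was listed at 322.8, 296.7 and 214.4 RP10M in the WT libraries and at 117.3, 81.7 and 66.4 in the KO libraries, a log2 change of -1.66 with a limma adjusted p of 0.0233. All 8 cardiac myocyte markers examined were detected, with summed levels of 895825 to 1110810 RP10M in WT against 944961 to 1016078 in KO. Of these, Myl2, the ventricular myosin light chain, fell by 0.82 on the log2 scale (limma adjusted p = 0.00579) and Ryr2, the calcium release channel, by 1.41 (limma adjusted p = 0.0429). The cardiac actin Actc1 had a log2 change of 0.53 and did not pass (limma adjusted p = 0.0774). The 4 atrial myocyte markers (Nppa, Myl4, Myl7 and Sln) summed to 745.5 to 2340 RP10M in WT and to 17799 to 33726 in KO. The 8 fibroblast markers summed to 703.8 to 4723 in WT and 3910 to 6144 in KO, with Lum at 0 in 2 WT libraries. Among them Mfap5 rose from 61.0, 86.9 and 213.3 RP10M in WT to 406.7, 513.8 and 520.0 in KO (log2 change 2.18, limma adjusted p = 0.0314). Col1a1, Col1a2, Col3a1, Pdgfra, Dcn and Postn had positive changes that did not pass (limma adjusted p of 0.227 to 0.711). The 6 endothelial markers summed to 2387 to 5443 in WT and 2485 to 3275 in KO. Smooth muscle markers (5 genes) summed to 3132 to 4004 in WT and 1597 to 2685 in KO. Among them Acta2 fell from a mean of 2651 to 741 RP10M (log2 change -1.94, limma adjusted p = 0.0195), while Myh11 had means of 705 and 1052 (0.58, limma adjusted p = 0.248). The macrophage markers (6 genes, with Cd163 at 0 in KO library 1 and Emr1 in KO library 2) summed to 185.8 to 473.5 and 444.1 to 593.7, and the erythroid markers (2 genes) to 1568 to 7377 and 1649 to 2888. WT library 3 was the highest of the WT libraries for the fibroblast, endothelial, macrophage and erythroid sums. The part of these differences in the results below was not tested. In such bulk samples, fewer cells of a type and less RNA per cell cannot be told apart.

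The family was expressed over a wide range. In WT the 76 genes together took 1.14% ± 0.105 (SD, n = 3 libraries) of all 3′-end signal, and in KO 1.16% ± 0.0790. The summed level was 107155, 120223 and 108872 RP10M in the WT libraries and 106577, 120558 and 119933 in the KO libraries, so the groups overlapped. The WT mean of single genes ran from 55.0 to 21111 RP10M, a 384-fold range, with 24 genes at or above 1000, 48 between 100 and 1000 and 4 under 100. The values are not divided by transcript length, so the order of genes is an order of 3′-end signal only.

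Mrpl30, a large-subunit protein of bacterial descent, was the highest member in every library. Its level was 19318, 26577 and 17438 RP10M in WT against 19067, 24875 and 24040 in KO, and it held between 16.02% and 22.1% of the family's summed level. The next highest WT means were those of Mrpl53 (9840 ± 1556), Mrps28 (9073 ± 1841), Mrpl52 (7286 ± 676) and Mrpl46 (6552 ± 1366; SD, n = 3 for each). The WT libraries of neighbours in this order, from Mrpl53 to Mrpl46, overlapped. Mrpl53, Mrpl52 and Mrpl46 are large-subunit proteins with no bacterial counterpart, and Mrps28 is the only small-subunit protein among the 5. These 5 genes made up 46.5% to 49.5% of the summed level in WT and 44.2% to 46.3% in KO.

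The lowest members were Mrps18c (55.0 ± 12.7 RP10M in WT), Mrps5 (55.1 ± 13.3), Mrpl32 (82.6 ± 30.3), Mrpl15 (83.9 ± 21.4) and Mrpl39 (103 ± 34.7). Mrps18c and Mrps5 belong to the small subunit, and Mrpl32 is the large-subunit protein matured in mitochondria by the m-AAA protease. With 9 reads in KO library 3, Mrps18c was the thinnest member in any library. Across members the WT coefficient of variation had a median of 14.3% and ran from 2.94% for Mrpl45 to 36.7% for Mrpl32.

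**Figure D1:**
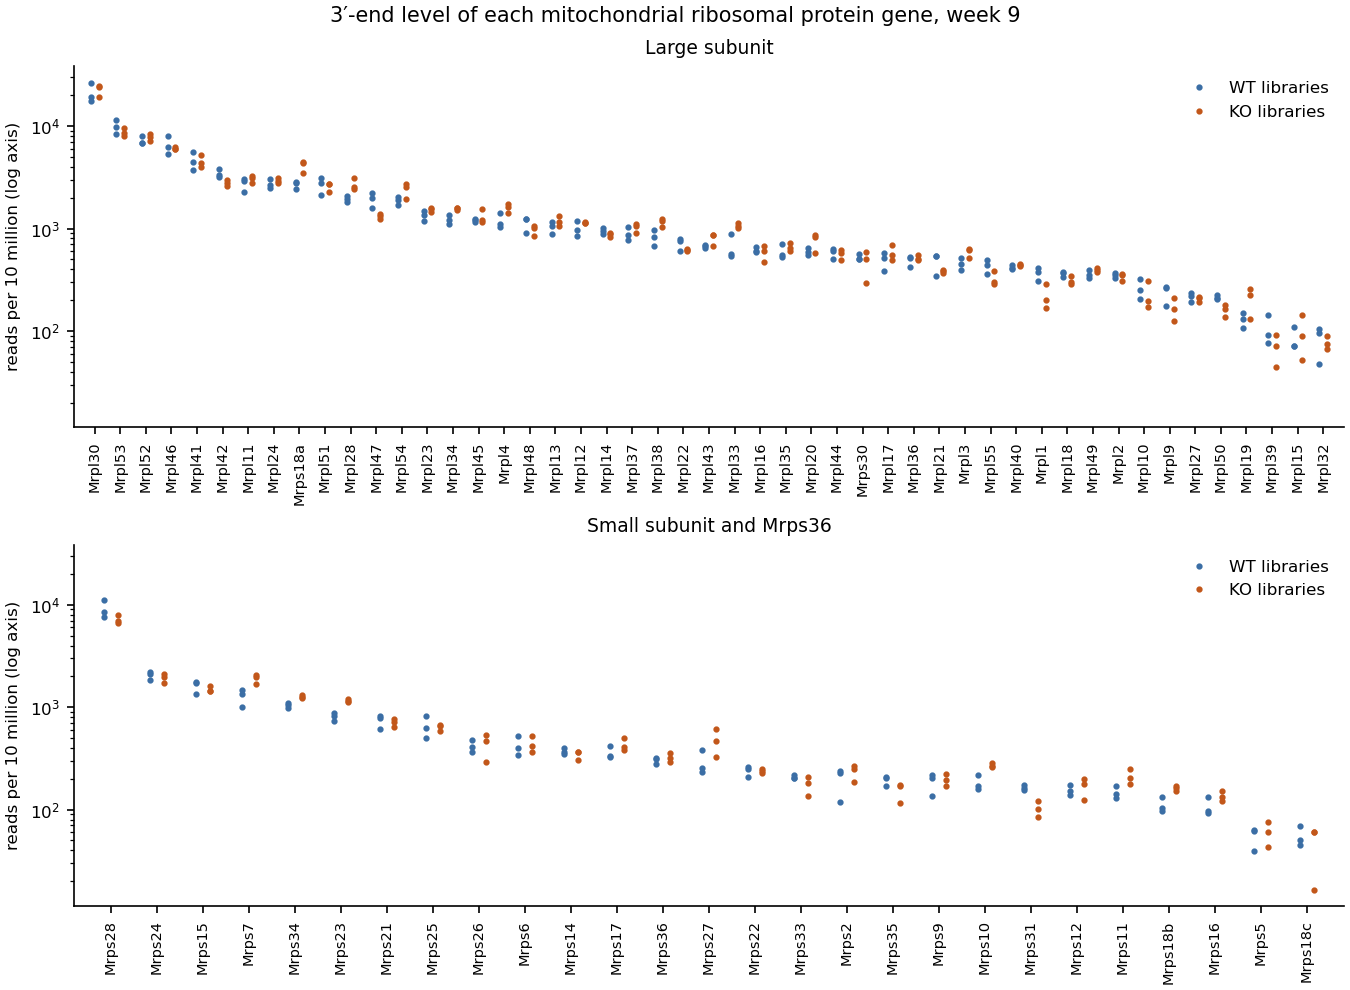
Each dot is the 3′-end level of a gene in 1 library, in RP10M on a log axis, for large-subunit genes (top) and small-subunit genes with Mrps36 (bottom), ordered by WT mean; WT libraries are blue and KO libraries orange. Mrpl30 stands above all others at 17438 or more, and the WT and KO dots of most genes overlap.

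The comparison of KO with WT asked whether the nuclear genes of the mitochondrial ribosome change in RBFox2 KO myocytes. No member passed the threshold in either direction at week 9 (limma on log2(RP10M + 1), adjusted p under 0.05 over 10858 genes). Over all genes tested, 1.21% were called higher and 0.396% lower in KO. At an unadjusted p under 0.05, limma had 10 members higher (13.2%, against 10.7% of all genes) and 3 lower (3.95%, against 6.47%). edgeR on the recovered reads with TMM scaling also called 0 members, with 126 calls over all genes, and DESeq2 called 0, with 461 over all genes. Each had 4 members higher and 5 lower at an unadjusted p under 0.05. The share of all genes at that threshold is not given for these 2 tests, so these counts have no background. The log2 change was positive for 44 of the 76 genes (57.9%, against 55.2% of all genes), and for 40 to 42 under the other scalings and count tests. Its median was 0.084, against 0.068 over all genes tested. The changes ran from -0.76 to 0.74, and 62 of the 76 lay within 0.5 of 0. The 95% interval of a change had a median half-width of 0.43, and for 64 members it lay wholly between -1 and 1.

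Library by library the family stayed close to WT. Set against the mean of the WT libraries on the log2 scale, the median member lay at 0.02 in KO library 1, 0.09 in KO library 2 and 0.05 in KO library 3, where all genes tested lay at 0.10, 0.07 and 0.08. In these libraries 39, 47 and 46 of the 76 genes were above their WT mean. All 3 KO libraries were above it for 30 genes and below it for 20, and they disagreed for the other 26. KO and WT libraries did not overlap for 17 genes, 12 higher in KO (15.8%, against 14.1% of all genes tested) and 5 lower (6.58%, against 9.25%). Both shares were near those of all genes.

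**Figure D2:**
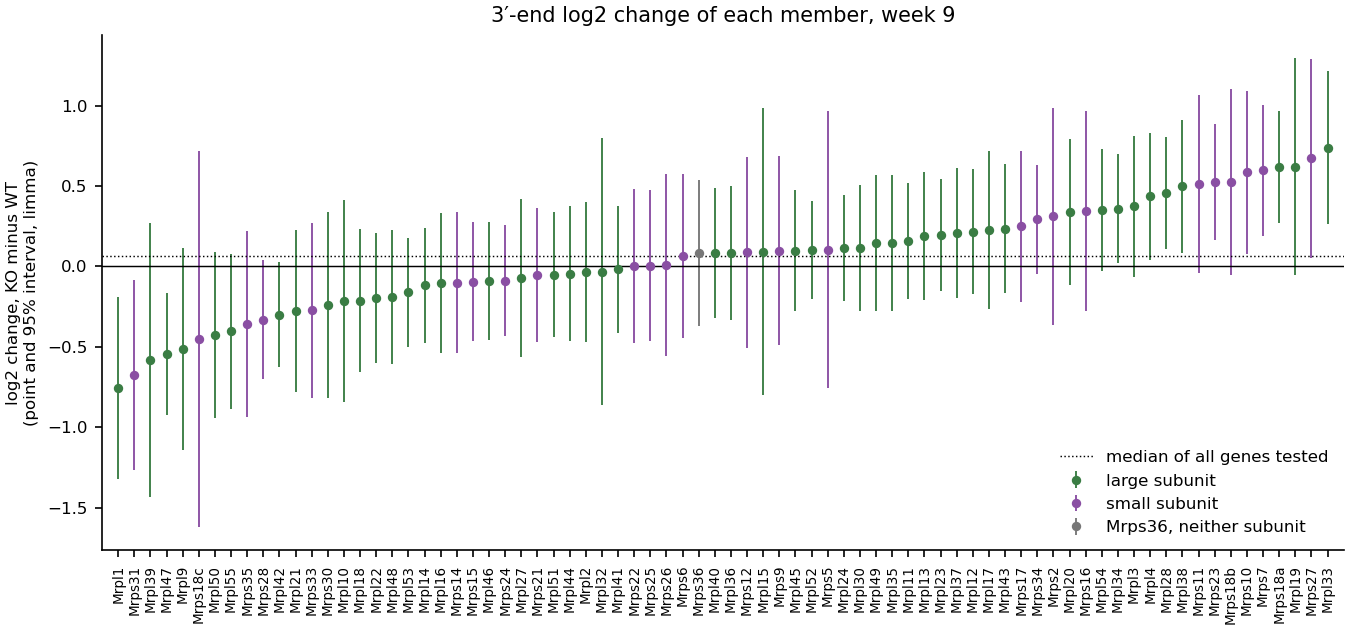
The log2 change of each of the 76 genes (KO minus WT, 3 libraries each) with its 95% interval from limma, ordered by size and coloured by subunit; the dotted line is the median of all genes tested, 0.068. The points run from -0.76 for Mrpl1 to 0.74 for Mrpl33, both subunits are spread along the order, and the intervals of 13 genes exclude 0.

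Among large-subunit genes, Mrps18a had the smallest limma adjusted p of the family. Its product is one of the 3 mammalian relatives of a bacterial small-subunit protein, and the one found in the large subunit. Its level was 2410, 2772 and 2873 RP10M in WT against 3526, 4465 and 4401 in KO. Every KO library was above every WT library, with a log2 change of 0.62 ± 0.16 (SE; 1.53-fold), and the limma adjusted p was 0.0907. The other relatives, Mrps18b and Mrps18c, are in the small subunit. Mrps18b was listed at 134.3, 97.7 and 104.6 RP10M in WT against 169.7, 150.5 and 162.3 in KO, also without overlap (log2 change 0.53 ± 0.26, limma adjusted p = 0.339). Mrps18c was listed at 69.2, 50.7 and 45.0 in WT and 59.9, 60.2 and 16.6 in KO, and its log2 change of -0.45 ± 0.53 turned to 0.15 without KO replicate 3.

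Mrpl33, a small large-subunit protein of bacterial descent, had the largest positive change. It was listed at 534.4, 560.9 and 879.4 RP10M in WT against 1135, 1060 and 1022 in KO. WT library 3 stood above the other WT libraries and below all KO libraries. The log2 change was 0.74 ± 0.21 (SE; 1.67-fold, limma adjusted p = 0.117). Without WT replicate 3 it was 0.97, with a limma adjusted p of 0.0119, and Mrps18a passed as well (0.67, limma adjusted p = 0.0472). Thus 2 members were then called where none was with all 6 libraries. Calls over all genes rose as well in that setting, from 174 to 420, so the added calls were not particular to these members.

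The RefSeq promoter windows of these genes are the 250 bases before the annotated start on GRCm38.p6. They are shown because Mrps18a had the smallest limma adjusted p of the family and Mrpl33 the largest positive change. Capitals mark CCGGAAG, the core of sites for ETS factors such as GABPA, in Mrps18a (chr17:46110754-46111003, plus strand), and GCGCATGC, the reverse complement of the NRF1 run GCATGCGC, in Mrpl33 (chr5:31613701-31613950, plus strand). Their first bases lie at -26 and -12, counted back from the start.
Mrps18a: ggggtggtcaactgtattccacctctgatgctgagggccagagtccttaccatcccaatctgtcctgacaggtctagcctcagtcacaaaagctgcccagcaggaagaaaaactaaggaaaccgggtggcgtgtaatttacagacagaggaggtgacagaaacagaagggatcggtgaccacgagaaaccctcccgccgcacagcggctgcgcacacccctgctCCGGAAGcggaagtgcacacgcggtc
Mrpl33: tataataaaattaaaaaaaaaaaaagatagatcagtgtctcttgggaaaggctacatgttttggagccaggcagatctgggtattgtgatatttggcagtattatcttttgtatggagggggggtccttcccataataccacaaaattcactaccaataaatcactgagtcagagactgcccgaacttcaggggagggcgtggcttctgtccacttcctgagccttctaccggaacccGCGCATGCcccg

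Mrpl19, a large-subunit protein of bacterial descent, was listed at 105.8, 148.4 and 130.7 RP10M in WT against 132.3, 223.6 and 254.5 in KO (log2 change 0.62 ± 0.30). KO library 1 lay within the WT values, and the limma adjusted p was 0.335. The large-subunit genes Mrpl28, Mrpl38, Mrpl4 and Mrpl34 also had no overlap between genotypes and were higher in KO. Their log2 changes lay between 0.36 and 0.50 and their limma adjusted p between 0.167 and 0.267.

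Mrpl1, the large-subunit protein that forms the stalk where spent transfer RNA leaves, had the lowest change of the family. Its level was 309.2, 372.7 and 409.9 RP10M in WT against 199.6, 290.2 and 167.8 in KO. The groups did not overlap, with a log2 change of -0.76 ± 0.26 (SE; 0.592 times the WT level, limma adjusted p = 0.162). Mrpl47, a protein of the rim of the peptide exit tunnel, was listed at 1591, 2235 and 1975 in WT and 1228, 1397 and 1322 in KO, again without overlap (log2 change -0.54 ± 0.17, limma adjusted p = 0.138). Mrpl50, at 211.6, 224.4 and 206.0 in WT and 137.2, 178.4 and 164.1 in KO, was the third large-subunit gene of this kind (-0.43 ± 0.23, limma adjusted p = 0.391), and Mrpl42, described with its isoforms, was the fourth. Mrpl39, Mrpl9 and Mrpl55 had log2 changes of -0.58, -0.51 and -0.40, with overlapping libraries and limma adjusted p between 0.386 and 0.489. In the promoter window of Mrpl1 (chr5:96209865-96210114, plus strand), shown because its gene had the lowest change, none of the 3 motif runs searched was found.
Mrpl1: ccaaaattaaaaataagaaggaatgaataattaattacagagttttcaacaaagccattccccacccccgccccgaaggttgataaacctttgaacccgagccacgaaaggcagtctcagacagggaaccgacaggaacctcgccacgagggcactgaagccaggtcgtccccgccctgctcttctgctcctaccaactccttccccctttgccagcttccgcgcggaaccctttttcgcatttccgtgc

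In the small subunit, Mrps7, a protein of the head of the particle with a bacterial counterpart, was listed at 1004, 1344 and 1465 RP10M in WT against 1674, 2074 and 1971 in KO. Mrps10, another protein of the head, was listed at 218.4, 168.3 and 157.9 in WT and 262.0, 266.6 and 282.1 in KO. Mrps23, found only in mitochondria, was listed at 869.4, 816.0 and 728.8 in WT and 1118, 1195 and 1154 in KO. In all 3 genes the lowest KO library exceeded the highest WT library. The log2 changes were 0.60 ± 0.19 for Mrps7, 0.59 ± 0.23 for Mrps10 and 0.53 ± 0.16 for Mrps23 (SE), with limma adjusted p of 0.133, 0.223 and 0.132. Mrps11 and Mrps34 were likewise higher in KO without overlap (0.51 and 0.29, limma adjusted p of 0.335 and 0.367). Mrps27, an RNA-binding protein with pentatricopeptide repeats, had a larger change of 0.67 ± 0.28 with overlap: 256.3, 378.2 and 233.2 in WT against 608.9, 324.6 and 464.6 in KO (limma adjusted p = 0.2504). Mrps31, also found only in mitochondria, was the one small-subunit gene lower in KO without overlap, at 173.6, 161.0 and 155.8 in WT and 84.8, 122.5 and 101.4 in KO (-0.68 ± 0.27, limma adjusted p = 0.225).

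For 24 of the 76 genes the RefSeq annotation places another gene over part of the same stretch, and whether reads were counted by strand is not given in the sources used here. In 5 cases the overlapping gene had the higher mean level: Mrpl18 with Tcp1 (3309 RP10M), Mrpl14 with Tmem63b (2220), Mrpl43 with Peo1 (1700), which RefSeq now names Twnk, Mrps23 with Cuedc1 (1197) and Mrpl2 with Klc4 (754). The values of these 24, which include Mrps7, Mrps18a, Mrps18b, Mrps27, Mrpl19 and Mrpl33, are uncertain to that extent. Of the genes over these 6 that the table lists, the highest was Gga3 at 104.6 RP10M, over Mrps7 at 1589.

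The large and the small subunit were compared as per-library means of the members' log2 levels, each centred on its mean over the 6 libraries. Members were chosen with results known, so no test is attached. Large-subunit means were -0.02, 0.03 and -0.06 in WT and -0.06, 0.05 and 0.06 in KO, which overlap. Small-subunit means were -0.01, -0.04 and -0.09 in WT and 0.04, 0.04 and 0.07 in KO, which do not overlap as deposited. After TMM scaling they were 0.02, 0.07 and -0.17 in WT and -0.01, 0.04 and 0.05 in KO, which overlap. The difference of large minus small was -0.005, 0.07 and 0.03 in WT and -0.10, 0.01 and -0.01 in KO, so KO library 2 lay within the WT range. Its mean was 0.03 ± 0.04 in WT and -0.03 ± 0.06 in KO (SD, n = 3), a shift of -0.07 with overlapping libraries.

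By summed level the large subunit exceeded the small one 4.32 ± 0.51 times in WT and 4.62 ± 0.14 times in KO (SD, n = 3). Leaving out Mrpl30 brought these ratios to 3.31 ± 0.28 and 3.52 ± 0.091. The median log2 change was 0.084 over the 49 large-subunit genes (26 positive, 53.1%). Over the 26 small-subunit genes it was 0.077 (17 positive, 65.4%), beside 0.068 over all genes (55.2% positive). Of the large-subunit genes, the 30 with a bacterial counterpart had a median of 0.10 and the 19 without one -0.02. Of the small-subunit genes, the 16 with a bacterial counterpart had a median of 0.09 and the 10 without one 0.01. In these counts Mrps18a and Mrps18b, although relatives of a bacterial protein, stand among the genes without a counterpart, and Mrps18c among those with one.

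**Figure D3:**
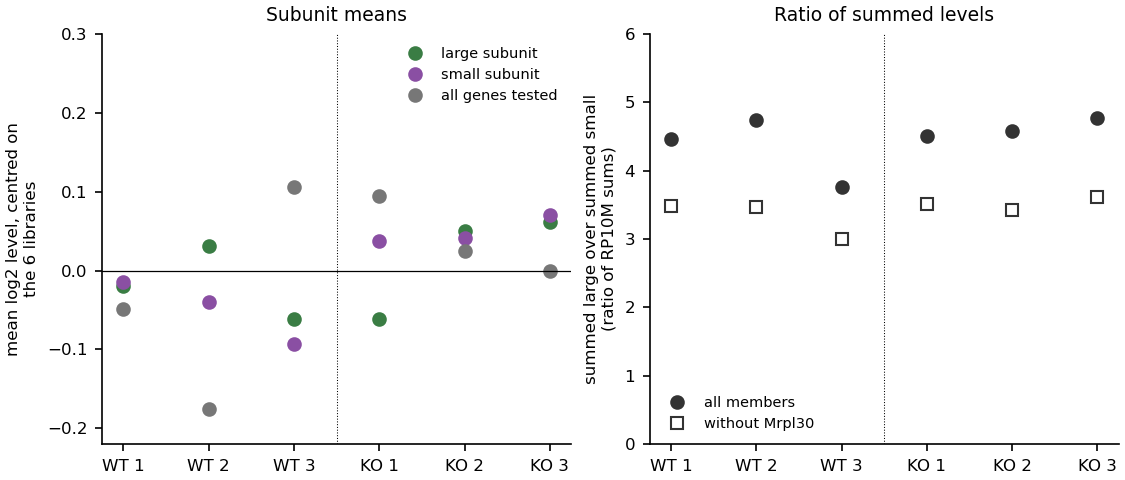
The left panel gives, for each of the 6 libraries, the mean centred log2 level of large-subunit genes, small-subunit genes and all genes tested. The right panel gives the ratio of summed large to summed small levels with and without Mrpl30; it stays between 3.76 and 4.77 with Mrpl30, and the lowest value is that of WT library 3.

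Only 3 events of these genes were among the 3885 that RASL-seq counted, all of the cassette type, in which the long isoform holds an exon that the short one skips. One of them, in Mrpl42, changed between genotypes. Mrpl42 encodes a large-subunit protein with no bacterial counterpart, and by mean counts its event was the 3rd highest of all, with 46786 to 353149 counts per library. The short isoform made up 4.42%, 4.02% and 4.38% of its counts in the WT libraries of week 5 and 2.91%, 2.93% and 4.06% in the KO libraries. At week 9 it made up 5.00%, 5.08% and 5.37% in WT and 3.45%, 2.35% and 2.41% in KO. At week 18 it made up 5.27%, 5.58% and 5.72% in WT and 2.64%, 2.56% and 2.61% in KO. WT and KO libraries overlapped at week 5, through KO library 3, and were apart at weeks 9 and 18. The 95% Wilson intervals of these shares, which cover counting error only, were 0.149 to 0.315 percentage points wide.

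The ratio of long to short counts was compared by edgeR's quasi-likelihood test over 2032 events. In Mrpl42 the ratio was 0.97 higher in KO on the log2 scale at week 9 (adjusted p = 3.60e-04) and 1.13 higher at week 18 (adjusted p = 5.15e-05), and both passed. The short share fell from 5.15% ± 0.192 to 2.73% ± 0.617 at week 9 and from 5.53% ± 0.230 to 2.60% ± 0.0431 at week 18 (SD, n = 3). At week 5 the ratio was 0.40 higher and did not pass (edgeR adjusted p = 0.179), with short shares of 4.27% ± 0.218 and 3.30% ± 0.656. Without KO replicate 3 of week 5, the library with the highest KO share, the week-5 value was 0.57 and passed (adjusted p = 0.0450). The ratio test called 10.1% of all events at week 5, 16.9% at week 9 and 19.4% at week 18. Most called events changed more than Mrpl42: 305 of the 343 called at week 9 and 323 of the 395 called at week 18 had a larger log2 change. The difference of the KO effect between weeks 18 and 5 was 0.72 on the log2 scale and did not pass (edgeR adjusted p = 0.208; 0.787% of events were called), so that an increase with age was not shown.

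Both isoforms of Mrpl42 were scaled to 1000000 counts per library (CPM) to see which of them differed. The short isoform ran from 1145 to 1603 CPM in WT and from 698 to 940 in KO at week 5. It ran from 1207 to 1472 CPM in WT and from 403 to 730 in KO at week 9, and from 1398 to 1457 and 382 to 611 at week 18. The long isoform ran from 24997 to 34702 CPM in WT and 22240 to 24772 in KO at week 5, without overlap. It ran from 22914 to 26319 in WT and 16738 to 23855 in KO at week 9, where the groups overlapped. At week 18 it ran from 23993 to 25104 in WT and 14548 to 22805 in KO, apart from each other. The sum of both isoforms was 30323 ± 5316, 26425 ± 2001 and 25885 ± 549 CPM in WT at weeks 5, 9 and 18, and 24226 ± 1189, 20921 ± 3658 and 19886 ± 4419 in KO (SD, n = 3). Its log2 changes of -0.26, -0.31 and -0.34 did not pass at any age (edgeR adjusted p of 0.462, 0.299 and 0.201).

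**Figure D4:**
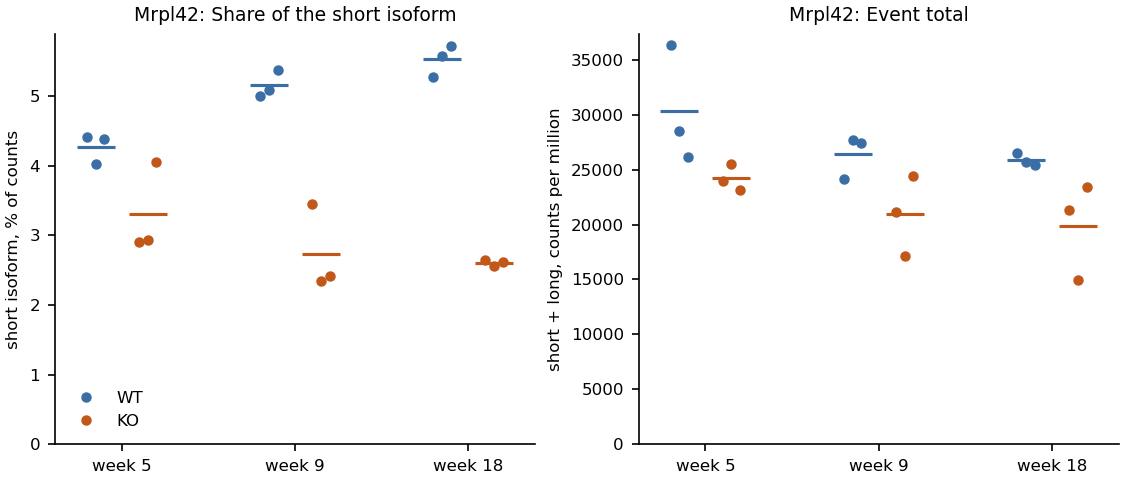
The Mrpl42 event in each RASL-seq library at weeks 5, 9 and 18, with the short isoform as a percentage of the event's counts (left) and the sum of both isoforms in CPM (right); dots are libraries and bars are means of 3. At week 18 the WT shares sit between 5.27% and 5.72% and the KO shares between 2.56% and 2.64%.

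In the 3′-end table, Mrpl42 was listed at 3856, 3205 and 3307 RP10M in the WT libraries and at 2964, 2631 and 2808 in the KO libraries at week 9. The groups did not overlap, and the log2 change of -0.30 ± 0.15 (SE) did not pass (limma adjusted p = 0.335). It was close in size to the change of the RASL-seq sum at the same age. For Mrpl13 and Mrpl15, the other members with counted events, the signs differed between the assays. Their 3′-end log2 changes were 0.19 and 0.09, and those of their RASL-seq sums at week 9 were -0.32 and -0.25. None of these passed.

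The other events gave little on isoforms. The event in Mrpl15, a core large-subunit protein, had 4551 to 34591 long counts per library and 0 to 10 short counts, so nearly all counts were of the long isoform. Its ratio rested on those few short counts and was not called at any age (edgeR adjusted p of 0.300, 0.125 and 0.263). The event in Mrpl13, also of the large subunit and written MRPL13 in the table, had 22 to 176 long counts and 0 to 2 short counts per library, too few short counts for the ratio test. Sums of both isoforms were not called at any age for Mrpl15 (log2 changes of 0.10, -0.25 and -0.28) or Mrpl13 (-0.03, -0.32 and 0.31) in the edgeR test over 2557 events, which called 8.06%, 12% and 18.7% of all events at weeks 5, 9 and 18. At an unadjusted p under 0.05 the edgeR sums of these 3 genes had 0 calls at each age.

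Promoters of this family are known for sites of NRF1, of the ETS factor GABPA and of YY1. Runs of letters from these sites were looked for on both strands of the 250 bases before the start in 67 of the 76 genes that matched a RefSeq window. A gene with several windows, such as Mrpl48, was counted if any of them held the run. GCATGCGC, from the NRF1 site, stood in 8 genes (11.9%), against 5.31% of 7895 tested genes with a window and 2.56% of all 27025 genes. CCGGAAG, from the ETS site, stood in 17 (25.4%), against 15.9% and 7.83%. AAGATGGC, from the YY1 site, stood in 4 (5.97%), against 2.57% and 1.83%. At least 1 of the runs was found in 26 genes and none in 41, and no gene held all 3. Mrpl32, among the lowest members by level, had the most matches, 4 to the NRF1 run and 1 to the YY1 run, and 2 of the NRF1 matches overlap because the run reads nearly the same on both strands. Its window (chr13:14613038-14613287, minus strand) is shown for that reason, with matches in capitals.
Mrpl32: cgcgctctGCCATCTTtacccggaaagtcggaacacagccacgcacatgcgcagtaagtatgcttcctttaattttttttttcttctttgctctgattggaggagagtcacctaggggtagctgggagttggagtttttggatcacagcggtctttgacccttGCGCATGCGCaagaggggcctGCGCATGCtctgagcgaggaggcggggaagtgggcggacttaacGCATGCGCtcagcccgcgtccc

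Mrpl46, of the large subunit, and Mrps11, of the small one, lie head to head, and their RefSeq windows overlap. Mrpl46 was listed at 6319, 8019 and 5318 RP10M in WT against 6226, 5985 and 5980 in KO, and Mrps11 at 168.2, 128.5 and 142.2 in WT and 202.1, 178.4 and 248.9 in KO. The log2 change was -0.09 ± 0.16 for Mrpl46 and 0.51 ± 0.25 for Mrps11 (SE), and neither passed (limma adjusted p of 0.832 and 0.335). The difference between the 2 genes was not tested.

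Other genes of mitochondrial translation were read from lists drawn up with earlier results known. Among 7 mitochondrial ribosomal proteins under other symbols, such as Dap3 of the small subunit and Ict1 of the large one, 0 passed limma's threshold. At an unadjusted p under 0.05 there were also 0. Of the 7, 5 had positive changes (71.4%, against 55.2% of all genes), with a median of 0.27. With each gene centred on its mean over the 6 libraries, the median of this list was -0.03, 0.02 and -0.50 in WT. In KO it was 0.15, 0.08 and 0.04, so WT library 3 lay far below the other libraries. Ict1, a peptidyl-tRNA hydrolase built into the ribosome, was listed at 782.6, 980.7 and 1012 RP10M in WT against 1143, 1217 and 1114 in KO (log2 change 0.33, limma adjusted p = 0.357). Of 15 translation factors, 0 passed in limma, 9 were positive (60%, against 55.2% of all genes) and the median was 0.11. At an unadjusted p under 0.05, limma had 1 higher and 1 lower (6.67% each, against 10.7% and 6.47% of all genes). Mtif3, an initiation factor, had 222.4, 226.2 and 252.0 in WT and 391.8, 275.1 and 337.4 in KO (0.50), while the initiation factor Mtif2 had 408.3, 302.2 and 334.6 in WT and 304.4, 191.3 and 156.7 in KO (-0.72). The limma adjusted p were 0.278 and 0.212.

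Of 22 genes tested for assembly of the ribosome and modification of its RNA, 1 passed. At an unadjusted p under 0.05, limma had 3 higher and 3 lower (13.6% each, against 10.7% and 6.47% of all genes). Wbscr16, an assembly factor now named Rcc1l, rose: WT libraries had 132.9, 104.9 and 109.8 RP10M, and KO libraries 254.5, 285.9 and 271.0. Its log2 change was 1.22 ± 0.24 (SE, limma adjusted p = 0.0320), and the genotypes lay far apart. Rpusd4, a pseudouridine synthase of mitochondrial RNA, was lower without overlap, with 71.9, 63.3 and 68.0 RP10M in the WT libraries against 20.0, 21.5 and 33.2, and missed the threshold (log2 change -1.44, limma adjusted p = 0.110). Mpv17l2, another assembly factor, had a log2 change of 0.71 (limma adjusted p = 0.114). Of 19 mitochondrial aminoacyl-tRNA synthetase genes, which charge the transfer RNAs this ribosome uses, 0 passed. At an unadjusted p under 0.05, limma had 4 higher (21.1%, against 10.7% of all genes) and 0 lower. The genotypes did not overlap for 6 higher (31.6%, against 14.1%) and 1 lower (5.26%, against 9.25%). In this list 14 genes were positive (73.7%, against 55.2% of all genes), and the median change was 0.32. Tars2, Aars2 and Yars2 had the smallest limma adjusted p, from 0.174 to 0.221.

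The products of mitochondrial translation join nuclear-encoded subunits of oxidative phosphorylation. Of 75 such genes, 26 had positive changes (34.7%, against 55.2% of all genes) and the median was -0.09. At an unadjusted p under 0.05, limma had 4 higher (5.33%, against 10.7% of all genes) and 9 lower (12%, against 6.47%). The genotypes did not overlap for 8 higher (10.7%, against 14.1%) and 15 lower (20%, against 9.25%). After adjustment 1 passed: Cox7a1, the heart and muscle form of a cytochrome c oxidase subunit, fell from 30062, 28015 and 29028 RP10M in WT to 20175, 18964 and 19947 in KO (log2 change -0.56 ± 0.12, limma adjusted p = 0.0433). Of 72 ribosomal protein genes of the cytosolic ribosome, 0 passed, 25 were positive (34.7%, against 55.2% of all genes) and the median was -0.11. With each gene centred on its mean over the 6 libraries, their median level varied widely between libraries. It was -0.20, 0.05 and 0.29 in WT and -0.19, 0.05 and 0.01 in KO, which overlap. Here limma had 4 higher (5.56%, against 10.7% of all genes) and 3 lower (4.17%, against 6.47%) at an unadjusted p under 0.05. Of 7 genes of mitochondrial transcription and DNA upkeep, 0 passed in limma and the median was -0.24. At an unadjusted p under 0.05 there were 0 higher and 1 lower (14.3%, against 6.47% of all genes). Ssbp1, Polg2 and Peo1 were the smallest in limma adjusted p (0.259 to 0.411). Of 8 regulators of mitochondrial gene expression, 0 passed in limma. At an unadjusted p under 0.05 there were 1 higher and 1 lower (12.5% each, against 10.7% and 6.47% of all genes). The coactivator Ppargc1b was lower without overlap (562.9, 658.6 and 669.2 in WT; 409.2, 399.8 and 217.6 in KO; limma adjusted p = 0.108) and the nuclear receptor Esrra higher without overlap (132.9, 126.7 and 157.9 in WT; 237.1, 206.4 and 219.4 in KO; limma adjusted p = 0.176). The coactivator Ppargc1a overlapped between genotypes (limma adjusted p = 0.433).

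**Figure D5:**
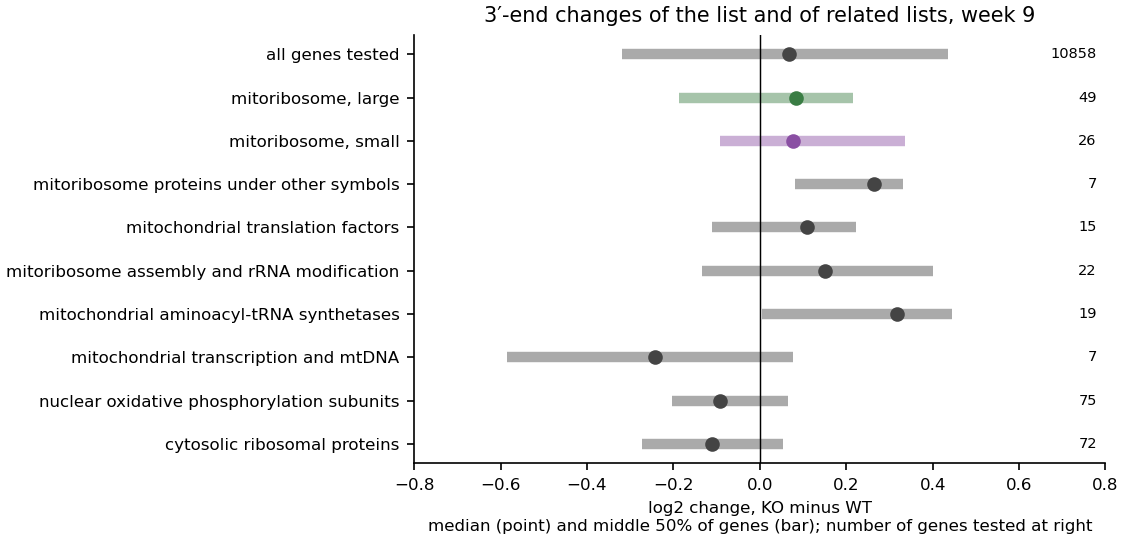
Median log2 change at week 9 (point) and the middle 50% of genes (bar) for the large and small subunit, related lists and all genes tested, with the number of genes tested at right. The medians run from -0.24 for mitochondrial transcription and DNA to 0.32 for the aminoacyl-tRNA synthetases, and those of both subunits lie near that of all genes, 0.068.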

How the data were processed

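The members and all lists were chosen with earlier results of these data known. Per the file headers, the 3′-end values deposited by the authors are a signal for each gene scaled to 10000000 reads (RP10M, 1 decimal), and the RASL-seq values deposited by the authors are counts, raw, of either isoform of an event. cutadapt 1.2.1, Bowtie 0.12.7 and mm9 appear in the submitters' processing notes with no role given. Whole reads were recovered from the 3′-end values (100.0% whole within 0.1 of a read); WT library 2 sums to 9529443.7 instead of 10000000. Columns of a group differed beyond sampling noise (chi-square per degree of freedom of 6.79 to 84.0 over features with at least 20 counts).

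limma 3.58.1 (trend and robust, R 4.3.3) was run on log2(RP10M + 1) over the 10858 rows whose mean reached 10 RP10M, and log2 changes are on this scale, where those of low genes come out too small. edgeR 4.0.16 and DESeq2 1.42.0 on recovered reads were alternatives. The quasi-likelihood test of edgeR compared paired isoform counts (2032 events whose mean reached 20 counts, and 1 per isoform) and event sums (2557 events). P-values were adjusted by Benjamini-Hochberg over the whole table, with a threshold of 0.05, and the scripts were tested on simulated data. Named genes were members past the threshold, the 5 highest and 5 lowest in WT, the 8 largest changes each way, members without overlap, counted events, and up to 3 genes of each other list with the smallest adjusted p or past the threshold. RefSeq tables of GRCm38.p6 gave names, overlaps and promoter windows only. The authors' 2 average columns and the other samples were not used.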

Additional observations from a re-analysis of the deposited data

How the results depend on the processing

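No member was called lower under any of the 17 alternatives, and none higher except under 2 of them. The replicate block in limma called 1 (Mrps18a, adjusted p = 0.0426), and leaving out 1 library gave 0 to 2. The member with the smallest adjusted p was Mrpl33 with TMM scaling in limma, with edgeR and TMM, and with DESeq2. It was Mrps31 in limma without trend and robust settings. With 1 library left out it was Mrps18a, Mrpl33, Mrpl47 or Mrpl1. The median log2 change of the members stayed positive, at 0.0135 with edgeR and TMM and 0.030 to 0.11 when 1 library was left out; the large-minus-small shift was -0.0205 by medians and -0.09 to -0.03 with 1 library left out. Over all genes, limma called 174, edgeR with TMM 126 and DESeq2 461; 54.0% of the DESeq2 calls were higher in KO against 75.3% in limma. limma without trend and robust settings called 3, the replicate block 338, and leaving out 1 library 18 to 420. Whether same-numbered libraries are pairs is not given in the labels, and the main fits did not take them as pairs. Deviations of same-numbered 3′-end libraries correlated at 0.28, 0.06 and 0.19. Each WT library correlated best with the KO library of its own number. KO library 2, however, correlated better with WT library 3 (0.12) than with WT library 2 (0.06). These values do not settle the pairing. The direction turned for Mrps18c with 1 library left out (-0.75 to 0.15; KO replicate 3), for the Mrpl13 event sum at week 5 under the replicate block (0.0112) and without 1 library (-0.21 to 0.32), and for the Mrpl15 event sum at week 5 without 1 library (-0.0084 to 0.28); the cause was not tested. Leaving out 1 library, the isoform test called 0 to 1 member events at week 5, 1 to 2 at week 9 (Mrpl15 joined without WT replicate 2) and 1 at week 18. The Mrpl42 call held in each of 11 alternatives at week 9 (log2 0.87 to 1.16) and week 18 (1.10 to 1.16). TMM scaling of subunit means was added after seeing the data. Members under 100 RP10M rest on as few as 9 reads, which limits their precision.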
